A study of Mus musculus with 6 samples.

Results

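The mitochondrial genome of the mouse carries genes for core subunits of the respiratory chain, and 10 of these genes are described here: mt-Nd1, mt-Nd2, mt-Nd4, mt-Nd5, mt-Nd6, mt-Cytb, mt-Co1, mt-Co2, mt-Co3 and mt-Atp6. They are 10 of 18908 genes in the deposited table, taken by their symbols on chromosome M, and they were selected on earlier results of the same comparison in these libraries. RNA was sequenced from 6 mouse libraries, 3 labelled as VprBP shRNA with a VprBP1 knockdown genotype and 3 labelled as control shRNA with a wild-type genotype. Short hairpin RNAs are used to lower a chosen transcript, here that of VprBP, now called Dcaf1, which brings substrates to the CRL4 ubiquitin ligase. All 6 were labelled bone-marrow-derived macrophages, and the series title places VprBP in osteoclast differentiation through histone H2A phosphorylation. The labels give neither the hairpin sequence nor the age, sex or strain of the animals. They do not say that the 3 libraries of a label came from separate cultures or animals, so p-values reflect nothing beyond the spread among 3 libraries, and that spread may be technical.

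Each respiratory complex that pumps protons, and the ATP synthase that uses the gradient, combines subunits made inside mitochondria with many more subunits imported after translation in the cytosol. Mitochondrial DNA is copied into long transcripts of both strands by a single-subunit RNA polymerase, and the transfer RNAs that lie between the genes mark where those transcripts are cut. Most of the messenger RNAs that result are polyadenylated, which lets libraries built from poly(A) tails capture them. Their levels depend on mitochondrial DNA content, transcription, cutting and decay, which RNA-seq alone does not separate.

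The libraries held 17825340 to 18407356 counts with the VprBP label and 16839445 to 21838875 with the control label. Levels are given in CPM, which puts every library on the same total, here with TMM factors that correct for library make-up, and differences are log2, VprBP-labelled minus control-labelled. Dcaf1, the targeted gene, was at 35.9, 34.5 and 36.7 CPM in VprBP-labelled libraries, against 42.2, 43.4 and 40.6 CPM in control-labelled libraries. This is a log2 difference of -0.24 ± 0.07 (SE; edgeR adjusted p = 0.00625), which with library sizes alone was -0.12 (adjusted p = 0.138). Of 12 macrophage markers 8 had no row, Csf1r, Adgre1, Itgam, Spi1 and Ptprc among them, and the sum of the other 4 was 16.5 to 18.2 CPM in VprBP-labelled libraries and 37.0 to 40.1 CPM in control-labelled libraries. That sum was carried by Cd68, at 1.01 CPM in VprBP-labelled libraries and 31.6 CPM in control-labelled libraries on average, while Mertk (log2 1.32) and Lyz2 (1.25) were higher with the VprBP label and Cd14 was not called (-0.39). All 8 pigment cell markers, such as Tyr, Dct, Pmel and Mlana, were present and summed to 19634 to 20143 CPM in VprBP-labelled libraries and 21053 to 21432 CPM in control-labelled libraries. These close sums hide differences in both directions: Tyr (log2 1.92), Sox10 (1.81), Mitf (1.78) and Dct (0.59) were higher with the VprBP label, Slc45a2 (-1.93), Pmel (-1.48) and Mlana (-1.42) were lower, and Tyrp1 was at 0.08 (edgeR adjusted p = 0.0462). The labelled cell type is thus not borne out by its defining markers in any of the 6 libraries. Fibroblast markers, 4 of 6 of which had a row, summed to 84.4 to 97.3 CPM in VprBP-labelled libraries and 33.6 to 34.6 CPM in control-labelled libraries, with Pdgfra (2.13) and Pdgfrb (1.01) higher and Dcn (-1.10) lower. The part of these markers in the differences below was not tested. Osteoclast markers, 3 of 7 with a row, summed to at most 0.833 CPM in VprBP-labelled libraries and 1.73 CPM in control-labelled libraries, and markers of T and NK cells, B cells, neutrophils, erythroid and endothelial cells to at most 2.10 CPM per list. In bulk RNA, fewer cells of a type and less RNA per cell cannot be told apart.

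Most tested genes differed between the labels. Of 14641 genes tested with edgeR's quasi-likelihood test at an adjusted p below 0.05, 75.0% were called, 37.9% as higher and 37.0% as lower in VprBP-labelled libraries. In 77.2% of all tested genes the 3 VprBP-labelled values did not overlap the 3 control-labelled values. All 10 mitochondrially encoded genes passed the filter on low counts, all 10 were lower in VprBP-labelled libraries and none overlapped between labels. Because the genes were chosen on this comparison, nothing is read from that count, no p is given for them, and the values below are a description. Their median log2 difference was -1.15, from -2.19 to -0.42, while the median over all tested genes was -0.01.

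The summed level of the 10 genes was 45889.8, 52180.5 and 48394 CPM in VprBP-labelled libraries, against 97302, 94811 and 87997 CPM in control-labelled libraries. The sum was 1.91-fold lower with the VprBP label, and the highest VprBP-labelled library lay well below the lowest control-labelled one. As a share of all counts, the 10 genes made up 4.77%, 5.43% and 5.05% of VprBP-labelled libraries and 9.32%, 9.10% and 8.49% of control-labelled libraries. The fall was uneven among the genes: without mt-Co1, the most abundant, the sum averaged 20737 ± 1623 CPM in VprBP-labelled libraries and 55814 ± 2842 CPM in control-labelled libraries (SD, n = 3 each), a 2.69-fold difference.

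**Figure D1:**
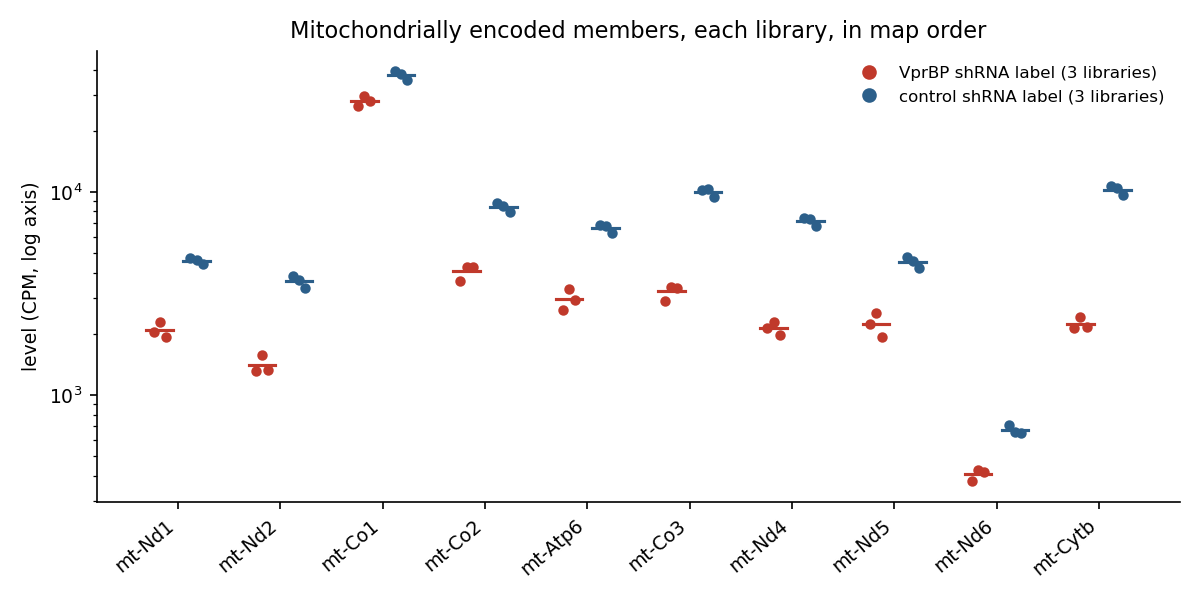
Level of each of the 10 genes in each library (points, CPM on a log axis, bars at the means), in the order of the mitochondrial map, with VprBP-labelled libraries left of control-labelled libraries. The points of the labels do not overlap for any of the 10 genes, which were chosen on this comparison, nor in 77.2% of all tested genes. The gap is widest for mt-Cytb (2243 and 10229.8 CPM on average) and narrowest for mt-Co1 (28084 and 37556 CPM).

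The ends of the 10 coding sequences differ in a way that belongs to how mitochondrial messages are finished, and they are shown because the genes with the lowest log2 differences share one kind of end. The last 24 bases of each are written from 5′ to 3′ on the coding strand, with the bases of the stop codon in capitals, as in the GENCODE M21 transcripts.
mt-Cytb: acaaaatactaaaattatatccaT
mt-Nd4: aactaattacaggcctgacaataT
mt-Co3: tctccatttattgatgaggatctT
mt-Nd2: ctagccccccaactaattaccTAG
mt-Atp6: ctatatctacatgataatacaTAA
mt-Nd1: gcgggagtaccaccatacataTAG
mt-Co2: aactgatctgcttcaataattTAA
mt-Nd5: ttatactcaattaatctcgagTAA
mt-Nd6: attatcgagattactcgagatTAA
mt-Co1: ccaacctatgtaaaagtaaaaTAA
The coding sequences of mt-Cytb, mt-Nd4 and mt-Co3 stop at a single T, and their stop codons are completed only when the poly(A) tail is added. The other 7 end in a full TAA or TAG. The list is in order of the log2 difference, and the 3 genes with a lone T stand first, at -1.63 or lower, against -1.37 or higher in the other 7. These same 3 genes were the lowest in each of the 13 alternative analyses, and mt-Co1 was the highest of the 10 in each. The alternatives reuse the same libraries, and a change of scaling moves every gene by nearly the same amount. The unchanged order therefore adds no support to the pattern. The pattern was noticed after the values were seen and carries no test. Genes outside the 10 depart from it: mt-Nd3 and mt-Nd4l end on a full codon, and mt-Nd3, at -2.90, lay below all 10, while mt-Nd4l, at -1.63, was level with mt-Co3.

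Complex III has 1 subunit made in mitochondria, cytochrome b, the haem protein that passes electrons from ubiquinol to the rest of the complex. Its gene mt-Cytb (chromosome M 14145 to 15288, plus strand, GRCm38) was at 2130.5, 2432 and 2166 CPM in VprBP-labelled libraries, against 10642, 10421 and 9626 CPM in control-labelled libraries. The lowest control-labelled value lay far above the highest VprBP-labelled one, and the log2 difference of -2.19 ± 0.05 (SE), or 4.56-fold lower, was the lowest of the 10. Of all tested genes, 2.93% had a log2 difference as low or lower.

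Complex I takes electrons from NADH into the chain, and its 5 genes here encode subunits of the membrane arm, where protons are pumped. Together they averaged 8252 ± 767 CPM in VprBP-labelled libraries and 20548 ± 1102 CPM in control-labelled libraries (SD, n = 3 each), 2.49-fold lower with the VprBP label. mt-Nd4 (10167 to 11544, plus strand), one of the antiporter-like subunits, was at 2128, 2280.4 and 1969 CPM in VprBP-labelled libraries, against 7458, 7306 and 6752 CPM in control-labelled libraries. Its log2 difference of -1.75 ± 0.05 was the lowest of these 5 genes. mt-Nd3, a complex I gene outside the 10, was lower still, at -2.90. mt-Nd2 (3914 to 4951, plus strand), another antiporter-like subunit, was at 1305, 1563 and 1329 CPM in VprBP-labelled libraries, against 3871, 3664 and 3351 CPM in control-labelled libraries, a log2 difference of -1.37 ± 0.06. mt-Nd1 (2751 to 3707, plus strand) encodes the subunit at the junction with the peripheral arm, beside the ubiquinone site. It was at 2034, 2272 and 1927 CPM in VprBP-labelled libraries, against 4701, 4594 and 4399 CPM in control-labelled libraries, a log2 difference of -1.14 ± 0.05.

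mt-Nd5 (11742 to 13565, plus strand) and mt-Nd6 (13552 to 14070, minus strand) lie end to end on opposite strands. mt-Nd5, the outermost antiporter-like subunit, was at 2245, 2544 and 1937 CPM in VprBP-labelled libraries, against 4773, 4570.4 and 4195 CPM in control-labelled libraries, a log2 difference of -1.01 ± 0.07. mt-Nd6, the sole messenger RNA copied from the other strand, was at 376, 426 and 417 CPM in VprBP-labelled libraries, against 709, 654 and 649.5 CPM in control-labelled libraries. It had the second highest log2 difference of the 10, -0.72 ± 0.05, or 1.65-fold lower. The annotated ends of both genes share 14 bases, and no source used here gives the strand setting of the counting. Reads of mt-Nd6 therefore cannot be told apart from reads of the long transcript that crosses the same stretch on the opposite strand. The ratio of mt-Nd6 to the 9 genes of the other strand was 0.826%, 0.824% and 0.870% in VprBP-labelled libraries, against 0.734%, 0.694% and 0.744% in control-labelled libraries, higher in all 3 VprBP-labelled libraries.

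Complex IV, cytochrome c oxidase, hands electrons to oxygen, and mitochondria make its 3 catalytic core subunits. mt-Co1 (5328 to 6872, plus strand), the subunit that holds the oxygen-binding centre, was at 26527, 29653 and 28074 CPM in VprBP-labelled libraries, against 39238, 38053 and 35377 CPM in control-labelled libraries. Its log2 difference of -0.42 ± 0.04, or 1.34-fold lower, was the smallest fall of the 10. mt-Co2 (7013 to 7696, plus strand), which takes electrons from cytochrome c, was at 3629, 4263 and 4276 CPM in VprBP-labelled libraries, against 8810.2, 8488 and 7932 CPM in control-labelled libraries, a log2 difference of -1.05 ± 0.05. mt-Co3 (8607 to 9390, plus strand), the core subunit with no redox centre, was at 2904, 3415 and 3379 CPM in VprBP-labelled libraries, against 10231, 10309 and 9439 CPM in control-labelled libraries. Its log2 difference was -1.63 ± 0.05, or 3.09-fold lower, so the genes for 3 subunits of 1 complex spanned most of the range of the 10. Their sum was 35373 ± 2157 CPM in VprBP-labelled libraries and 55959 ± 2871 CPM in control-labelled libraries (SD, n = 3 each), 1.58-fold lower. It was mostly mt-Co1, with the nuclear copies described below left out. With copies added, mt-Co1, mt-Co2 and mt-Co3 averaged 28090, 8251 and 6465 CPM in VprBP-labelled libraries. In control-labelled libraries they averaged 37564, 16826 and 19984 CPM.

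The ATP synthase has mt-Atp6 (7927 to 8607, plus strand), whose product forms the half-channels through which protons reach the rotor. It was at 2611, 3331 and 2920.4 CPM in VprBP-labelled libraries, against 6869, 6752 and 6276 CPM in control-labelled libraries, a log2 difference of -1.17 ± 0.06. Its start overlaps mt-Atp8 by 43 bases on the same strand and its last base is the first of mt-Co3, so reads at these borders may be shared between neighbours.

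Within a label the libraries ranked alike for most of the genes. VprBP-labelled library 2 was the highest of its label for 9 of the 10, control-labelled library 1 was the highest of its label for 9, and control-labelled library 3 was the lowest for all 10. The coefficient of variation within a label was 3.35% to 13.5% over the 10.

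The other 6 rows of chromosome M were not among the chosen genes. Both ribosomal RNAs, mt-Rnr1 and mt-Rnr2, which lie upstream of mt-Nd1 on the same strand, kept overlapping values between labels. mt-Rnr1 averaged 517 ± 40.7 CPM in VprBP-labelled libraries and 479.8 ± 3.90 CPM in control-labelled libraries (SD, n = 3 each), a log2 difference of 0.11 ± 0.05 (SE; edgeR adjusted p = 0.0586). It was above 0 in all 13 alternatives, from 0.06 to 0.22 (adjusted p from 0.000564 to 0.274), and called as higher in 6 of them, for example at 0.17 without VprBP-labelled library 1 (adjusted p = 0.00106). mt-Rnr2 averaged 523 ± 56.8 CPM in VprBP-labelled libraries and 564 ± 28.1 CPM in control-labelled libraries, a log2 difference of -0.11 ± 0.06 (edgeR adjusted p = 0.115). It was called as lower in 2 of 13 alternatives, at -0.17 without VprBP-labelled library 2 (adjusted p = 0.0158) and at -0.16 without control-labelled library 3 (adjusted p = 0.0428). With library sizes alone its sign turned, to 0.01 (adjusted p = 0.922). The 2 ribosomal RNAs together came to 2.04%, 2.16% and 2.18% of the summed 10 messages in VprBP-labelled libraries, against 1.10%, 1.11% and 1.15% in control-labelled libraries. How much of each ribosomal RNA the messenger RNA kit captured is not known.

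The 3 short protein-coding genes, mt-Nd3, mt-Nd4l and mt-Atp8, were lower with the VprBP label, like the 10. mt-Nd3, a small complex I subunit, averaged 36.0 ± 14.1 CPM in VprBP-labelled libraries and 269 ± 9.58 CPM in control-labelled libraries, a log2 difference of -2.90 ± 0.15 (SE; edgeR adjusted p = 4.57e-12). mt-Nd4l, another small complex I subunit, whose gene overlaps mt-Nd4 by 7 bases, averaged 89.1 ± 12.3 CPM in VprBP-labelled libraries and 275 ± 24.4 CPM in control-labelled libraries, a log2 difference of -1.63 ± 0.08 (edgeR adjusted p = 2.17e-12). mt-Atp8, a small membrane subunit of the ATP synthase, averaged 37.3 ± 6.06 CPM in VprBP-labelled libraries and 92.3 ± 19.0 CPM in control-labelled libraries, a log2 difference of -1.31 ± 0.12 (edgeR adjusted p = 1.74e-08). The remaining row, the transfer RNA gene mt-Ts1, was listed at 0.248 CPM or less in every library and was not tested.

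**Figure D2:**
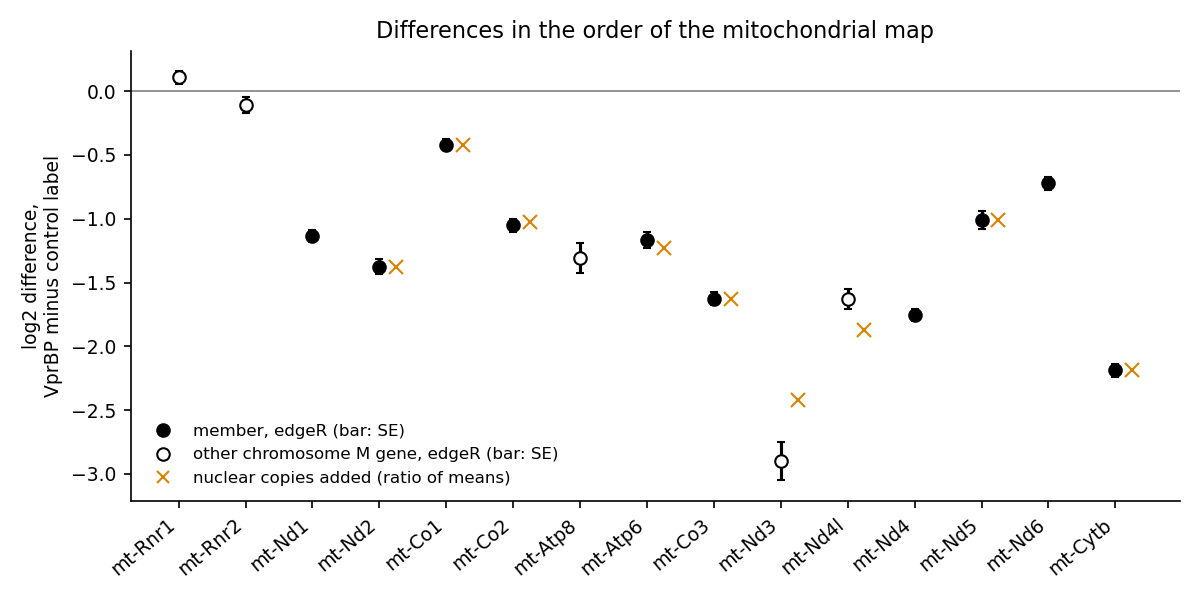
Log2 difference (VprBP-labelled minus control-labelled) of the 15 tested chromosome M genes along the mitochondrial map: filled circles are the 10 chosen genes and open circles the others, with SE bars, and crosses give the ratio of means once nuclear copies are added. Both ribosomal RNAs lie near 0, the messages between -0.42 and -2.90, and adding copies moves mt-Nd3 to -2.42 while mt-Co3 stays at -1.63.

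Copies of mitochondrial genes in the nuclear genome bear on these values, because a read that fits both places must be shared or given to one. By sequence match to the chromosome M transcripts, 12 nuclear genes with a row were copies at 90% identity or more, 9 of them at 95% or more. The 5 with a mean of at least 10 CPM lie side by side on the minus strand of chromosome 1. Gm28661 (chromosome 1 24614885 to 24615565) matches mt-Co2, Gm10925 (24613974 to 24614651) matches mt-Atp6 and Gm28437 (24613189 to 24613971) matches mt-Co3, each with no difference over the aligned length. Gm10222 matches mt-Nd4l with no difference and Gm28438 matches mt-Nd3 at 99.7%. One stretch of a copy that cannot be told from its gene, and one that can, show what a read would have to carry. The first 60 bases of mt-Co3 (chrM:8607-8666) and of Gm28437 (chr1:24613912-24613971, minus strand) are the same.
mt-Co3: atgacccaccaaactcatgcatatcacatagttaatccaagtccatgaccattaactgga
Gm28437: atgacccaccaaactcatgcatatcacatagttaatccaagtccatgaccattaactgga
Bases 460 to 519 of mt-Co1 (chrM:5787-5846) and of its copy Gm13340 (chr2:22589129-22589188, minus strand) differ at 4 positions, in capitals, out of 37 over 1545 aligned bases.
mt-Co1: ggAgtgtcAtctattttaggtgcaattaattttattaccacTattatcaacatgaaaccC
Gm13340: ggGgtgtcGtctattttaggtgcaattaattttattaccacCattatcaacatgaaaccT

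Copies with no difference from mt-Co3, mt-Co2 or mt-Atp6 were mostly listed at close to the level of that gene. The exception was Gm10925 in VprBP-labelled library 2, at 2597 CPM beside 3331 CPM for mt-Atp6. Gm28437 was at 2904, 3415 and 3378 CPM in VprBP-labelled libraries, against 10228, 10307 and 9437 CPM in control-labelled libraries beside the values of mt-Co3 given above, from which each differed by under 5 CPM. Gm28661 was at 3754, 4408 and 4421 CPM in VprBP-labelled libraries, 1.03 times mt-Co2 in each, against 8809.7, 8494 and 7937 CPM in control-labelled libraries, close to equal with mt-Co2. Gm10925 was 0.780 to 0.996 times mt-Atp6 in VprBP-labelled libraries and 0.997 to 0.998 times in control-labelled libraries. Gm28438 and Gm10222 departed more from their short genes. Gm10222 was 0.117 to 0.278 times mt-Nd4l in VprBP-labelled libraries and 0.301 to 0.516 times in control-labelled libraries. Gm28438 was 1.31 to 2.45 times mt-Nd3 in VprBP-labelled libraries and 0.991 to 1.03 times in control-labelled libraries. Gm13340, which differs from mt-Co1, averaged 5.59 CPM in VprBP-labelled libraries and 7.46 CPM in control-labelled libraries where mt-Co1 averaged 28084 and 37556 CPM. The 12 copies took 0.973% to 1.12% of all counts in VprBP-labelled libraries and 2.32% to 2.52% in control-labelled libraries.

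**Figure D3:**
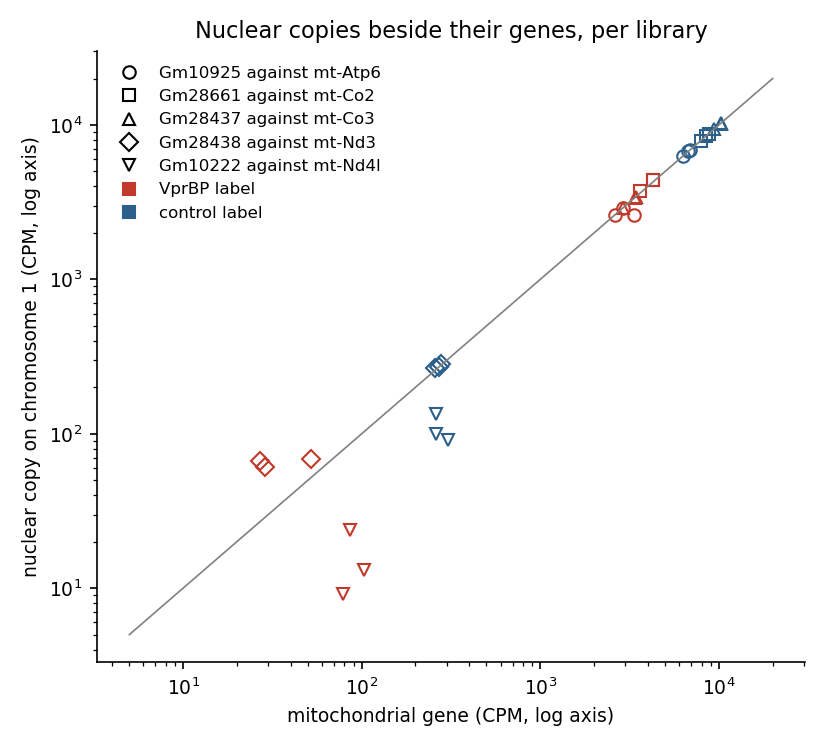
Level of the 5 named nuclear copies on chromosome 1 against the mitochondrial gene each matches (CPM, both axes log), 1 point per library, red for the VprBP label and blue for the control label, with the line of equal levels. The copies of mt-Co2, mt-Co3 and mt-Atp6 lie on or near the line (ratios from 0.780 to 1.03), and Gm10222 lies below it in all 6 libraries.

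With each copy added to its gene, the directions held and mt-Atp6 and mt-Co2 moved by less than 0.1. mt-Co3 with its copy was at 5808, 6829.6 and 6756 CPM in VprBP-labelled libraries, against 20459, 20617 and 18876 CPM in control-labelled libraries, and its log2 ratio of means stayed at -1.63. mt-Atp6 with its copy averaged 5649 ± 383 CPM in VprBP-labelled libraries and 13248 ± 629 CPM in control-labelled libraries (SD, n = 3 each), a log2 ratio of -1.23. mt-Co2 with its copies averaged 8251 ± 751 CPM in VprBP-labelled libraries and 16826 ± 887 CPM in control-labelled libraries, a log2 ratio of -1.03. The 10 genes with their copies summed to 58949.9 ± 3728 CPM in VprBP-labelled libraries and 118401 ± 6026 CPM in control-labelled libraries, 2.01-fold lower with the VprBP label. mt-Nd3, outside the 10, moved with its copy from -2.90 to -2.42 as a log2 ratio of means, and mt-Nd4l from -1.63 to -1.87, below mt-Co3 and mt-Nd4.

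Adding the copies changed the order of the levels per length. With copies added, control-labelled libraries had mt-Co3 at 25490 CPM per kb, mt-Co2 at 24599, mt-Co1 at 24313 and mt-Atp6 at 19454, the first 3 overlapping between neighbours in that order. Without copies, mt-Co1 stood at 24308 CPM per kb in control-labelled libraries, mt-Co3 at 12746, mt-Co2 at 12295 and mt-Atp6 at 9739. In VprBP-labelled libraries with copies added, mt-Co1 came first at 18181 ± 1012 CPM per kb, then mt-Co2 at 12063 ± 1097, and neither overlapped the gene after it. mt-Atp6 and mt-Co3 followed at 8295 ± 562 and 8246 ± 726 CPM per kb, overlapping each other. The lower part of the order in VprBP-labelled libraries was mt-Nd1, mt-Cytb, mt-Nd4, mt-Nd2, mt-Nd5 and mt-Nd6, between 2171 and 783 CPM per kb. In control-labelled libraries it was mt-Cytb, mt-Nd4, mt-Nd1, mt-Nd2, mt-Nd5 and mt-Nd6, between 8943 and 1292 CPM per kb. mt-Cytb thus stood clear of mt-Nd4 and mt-Nd1 in control-labelled libraries and overlapped mt-Nd1 in VprBP-labelled libraries.

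The make-up of the summed messages differed between labels more than between libraries of a label. With copies added, mt-Co1 made up 48.1%, 47.4% and 47.5% of the sum in VprBP-labelled libraries, against 31.9%, 31.6% and 31.7% in control-labelled libraries. mt-Cytb made up 3.80% ± 0.120 in VprBP-labelled libraries and 8.64% ± 0.0175 in control-labelled libraries (SD, n = 3 each). mt-Co3 made up 11.0% ± 0.454 in VprBP-labelled libraries and 16.9% ± 0.263 in control-labelled libraries. By contrast mt-Co2, at 14.0% ± 0.676 and 14.2% ± 0.0966, and mt-Nd5, at 3.80% ± 0.455 and 3.81% ± 0.0588, had shares in VprBP-labelled and control-labelled libraries that differed by less than the spread of the VprBP-labelled ones. These shares sum to 100% in each library, so the gain of mt-Co1 and the loss of the others are not separate facts.

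**Figure D4:**
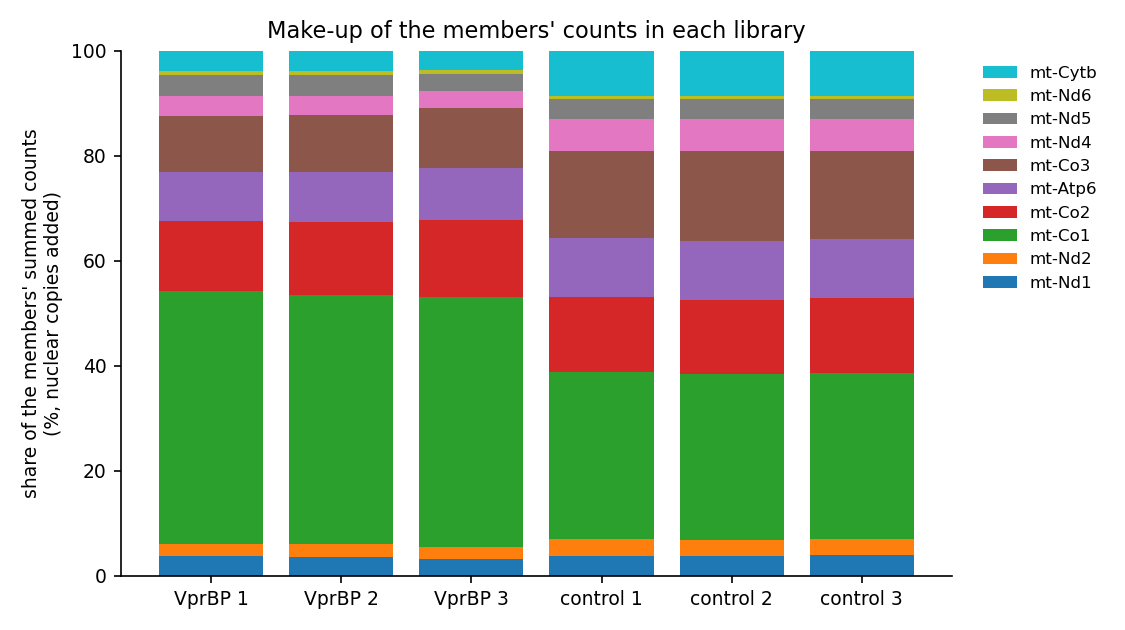
Share of each of the 10 genes in their summed level, nuclear copies added (%), 1 bar per library, VprBP-labelled libraries left of control-labelled libraries. mt-Co1 takes 47.4% to 48.1% of VprBP-labelled bars and 31.6% to 31.9% of control-labelled bars, while mt-Cytb and mt-Co3 take less in VprBP-labelled bars.

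Nuclear genes that serve the mitochondrial genome were read beside the 10 in 15 lists, and 247 of the 248 with a row were tested. Of these 64 were higher and 126 lower in VprBP-labelled libraries, 57 were not called, and their median log2 difference was -0.20, against -0.01 over all tested genes. Of all tested genes 75.0% were called, 37.9% as higher and 37.0% as lower, and the counts of each list below stand beside those shares. The share called per list ran from 54.5% (transcription) to 100% (nuclear complex III subunits), and many lists were small. All adjusted p-values below are edgeR's over all tested genes, and levels are means ± SD of 3 libraries per label.

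In the list of the transcription machinery, 6 of 11 genes were lower, none higher, and the median log2 difference was -0.44. Of the core genes, Polrmt and Tfam were not called and Tfb2m was called as lower. Polrmt, the mitochondrial RNA polymerase, was at 76.3 ± 6.79 CPM in VprBP-labelled libraries and 76.4 ± 3.57 CPM in control-labelled libraries (edgeR adjusted p = 0.999). Tfam, which packages and bends mitochondrial DNA at promoters, was at 26.6 ± 1.11 CPM in VprBP-labelled libraries and 27.4 ± 2.88 CPM in control-labelled libraries (edgeR adjusted p = 0.665). Tfb2m, the factor that opens the promoter, was lower, at 11.2 ± 0.627 CPM in VprBP-labelled libraries and 15.3 ± 1.85 CPM in control-labelled libraries (edgeR adjusted p = 0.00438). Tefm, the elongation factor, had a log2 difference of -0.88 (edgeR adjusted p = 0.000174), and Mterf3, a regulator of mitochondrial transcription and ribosome assembly, one of -0.84 (2.70e-06). Mterf1a and Mterf1b, both at -1.50, are near-identical genes that may share reads, so their split is uncertain. Both count among the 6. Mterf1b overlapped between labels (SE 0.38) and Mterf1a did not (SE 0.16).

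Genes for cutting, stabilising, tailing, modifying and degrading mitochondrial RNA were lower more often than higher: 21 of 27 were lower, 2 higher and 4 not called, with a median log2 difference of -0.52. Slirp, an RNA-binding protein that protects mitochondrial messages together with Lrpprc, was at 38.6, 34.5 and 36.3 CPM in VprBP-labelled libraries, against 63.2, 71.6 and 70.1 CPM in control-labelled libraries. The labels did not overlap for Slirp, with a log2 difference of -0.90 ± 0.07 (SE; edgeR adjusted p = 2.23e-09). Lrpprc itself was at 71.5 ± 3.21 CPM in VprBP-labelled libraries and 69.3 ± 6.45 CPM in control-labelled libraries (edgeR adjusted p = 0.559). Among the FASTK family of mitochondrial RNA-binding proteins, Fastk (-0.68), Fastkd3 (-1.11) and Tbrg4 (-0.94) were lower. Both called as higher were Pnpt1 (0.59), the polynucleotide phosphorylase of the RNA-degrading complex, and Hsd17b10 (0.69), a subunit of the RNase P that cuts tRNA 5′ ends. Trmt10c, its partner in that enzyme, was lower, at 14.1 ± 1.73 CPM in VprBP-labelled libraries and 28.6 ± 2.01 CPM in control-labelled libraries (log2 -1.02, edgeR adjusted p = 1.09e-07). Elac2, which cuts tRNA 3′ ends, was lower too (log2 -0.59). Prorp, a further subunit of that RNase P, was not called (log2 -0.03, edgeR adjusted p = 0.856). Unlike Pnpt1, the other RNA decay genes of the list, Supv3l1 (-0.40), Pde12 (-0.39) and Rexo2 (-0.49), were lower. Elac2, Trmt10c, Prorp, Supv3l1, Pde12, Rexo2, Lrpprc, Polrmt, Tfam and Tfb2m were added for their place in this pathway after their values were seen.

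Of 18 genes of mitochondrial DNA replication and the nucleoid, 9 were lower, 4 higher and 5 not called. Slc25a33, a pyrimidine nucleotide carrier of the inner membrane (log2 -1.52), and Atad3a, an inner membrane ATPase linked to nucleoids (-1.46), were lower, while Slc25a36, another pyrimidine nucleotide carrier (1.01), and Polg, the catalytic subunit of the mitochondrial DNA polymerase (0.32), were higher. No DNA was measured, so the copy number of the mitochondrial genome is not known for these libraries. Of 15 tested translation factors 6 were higher and 6 lower, with Guf1 (1.15) and Tufm (0.79), both GTPases of elongation, higher and the initiation factor Mtif3 (-0.94) and the methionine aminopeptidase Metap1d (-0.58) lower.

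Among 12 regulators of mitochondrial biogenesis, 6 were lower, 2 higher and 4 not called. Ppargc1a, the coactivator PGC-1 alpha, was at 34.5, 38.7 and 37.9 CPM in VprBP-labelled libraries, against 99.7, 89.6 and 80.4 CPM in control-labelled libraries, with no overlap and a log2 difference of -1.28 ± 0.08 (SE; edgeR adjusted p = 5.30e-11). Gabpb1 (-1.13) and Gabpa (-0.48), which encode the subunits of a factor that activates many nuclear genes for mitochondrial proteins, and the coactivator Pprc1 (-0.72) were lower as well. Ppargc1b, the coactivator PGC-1 beta (1.14), and Esrra, a nuclear receptor that PGC-1 proteins bind (0.54), were higher.

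The nuclear partners of the 10 genes in the same complexes were called in both directions. Of 36 nuclear complex I subunits 19 were lower, 8 higher and 9 not called, with a median of -0.20. Ndufb9 (-0.63) and Ndufa12 (-0.61) were lower, while Ndufs1 (0.59) and Ndufv2 (0.58), iron-sulfur subunits of the peripheral arm, were higher. Of 9 nuclear complex III subunits 5 were lower and 4 higher, with Uqcrq (-1.14) and Uqcr10 (-0.65) lower and both core proteins Uqcrc1 (0.27) and Uqcrc2 (0.49) higher. Of 11 nuclear complex IV subunits 3 were lower, Cox5b (-0.81) and Cox6b1 (-0.34) among them, and 4 higher, Cox7b (0.35) and Cox7a2 (0.32) among them, with a median of -0.03. Of 16 nuclear ATP synthase subunits 6 were lower, among them Atp5g1, a gene of the rotor ring (-1.22), and Atp5l (-0.40). Another 5 were higher, among them Atp5c1, the gamma subunit (0.61), and Atp5a1, the alpha subunit (0.88), which was at 593 ± 19.0 CPM in VprBP-labelled libraries and 323 ± 5.86 CPM in control-labelled libraries. Complex II has no subunit made in mitochondria, and of its 4 genes Sdha (0.96) and Sdhc (0.48) were higher, Sdhb (-0.15) lower and Sdhd (0.05, edgeR adjusted p = 0.478) not called. Sdhb was not called with library sizes alone, without VprBP-labelled library 2 or without VprBP-labelled library 3.

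Assembly factors were lower more often than higher in both lists: 10 lower and 3 higher of 18 for complex I and the ATP synthase, and 15 lower and 3 higher of 25 for complexes III and IV. Cox11 (-1.28) and Cox17 (-1.12), which deliver copper to complex IV, and Ndufaf4 (-1.18) and Ecsit (-0.89), which build complex I, were lower. Bcs1l (0.72), which inserts the iron-sulfur protein of complex III, Coa5 (0.31), a complex IV assembly factor, Ndufaf3 (0.78), a complex I assembly factor, and Nubpl (0.83), which carries iron-sulfur clusters to complex I, were higher. Of 16 chaperones and proteases 11 were lower and 4 higher, with Hspe1, the co-chaperonin (-1.71), and the protease Htra2 (-1.39) lower and the protease Oma1 (0.90) and the import chaperone Hspa9 (0.37) higher.

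Genes taken as proxies of mitochondrial mass, which encode abundant carriers, pores and import proteins, were higher more often than lower. Of 16 such genes 9 were higher, 5 lower and 2 not called in VprBP-labelled libraries, with a median of 0.24. Slc25a4, the ADP/ATP carrier, was at 439, 419 and 393 CPM in VprBP-labelled libraries, against 145, 138 and 148 CPM in control-labelled libraries, with no overlap and a log2 difference of 1.54 ± 0.05 (SE; edgeR adjusted p = 6.37e-15). Vdac1, the outer membrane channel (0.95), was higher too, and Tomm40 (-0.82) and Tomm70a (-0.55), of the import machinery, were lower. These are messenger levels, and mitochondrial mass was not measured.

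Of 13 tested genes linked to mitophagy, the digestion of mitochondria, 8 were higher, 3 lower and 2 not called, with a median of 0.32. Bnip3, a receptor on the mitochondrial surface, averaged 157 ± 11.1 CPM in VprBP-labelled libraries and 52.4 ± 2.63 CPM in control-labelled libraries (log2 1.58, edgeR adjusted p = 9.23e-14), and its relative Bnip3l was higher as well (0.96). The autophagy adaptors Sqstm1 (-2.04) and Optn (-1.78) were lower. Sqstm1 was at 1579 ± 45.1 CPM in VprBP-labelled libraries and 6509 ± 185 CPM in control-labelled libraries, so the summed level of the list fell to 2740.3 CPM in VprBP-labelled libraries, against 7409 CPM in control-labelled libraries, while most of its genes were higher.

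**Figure D5:**
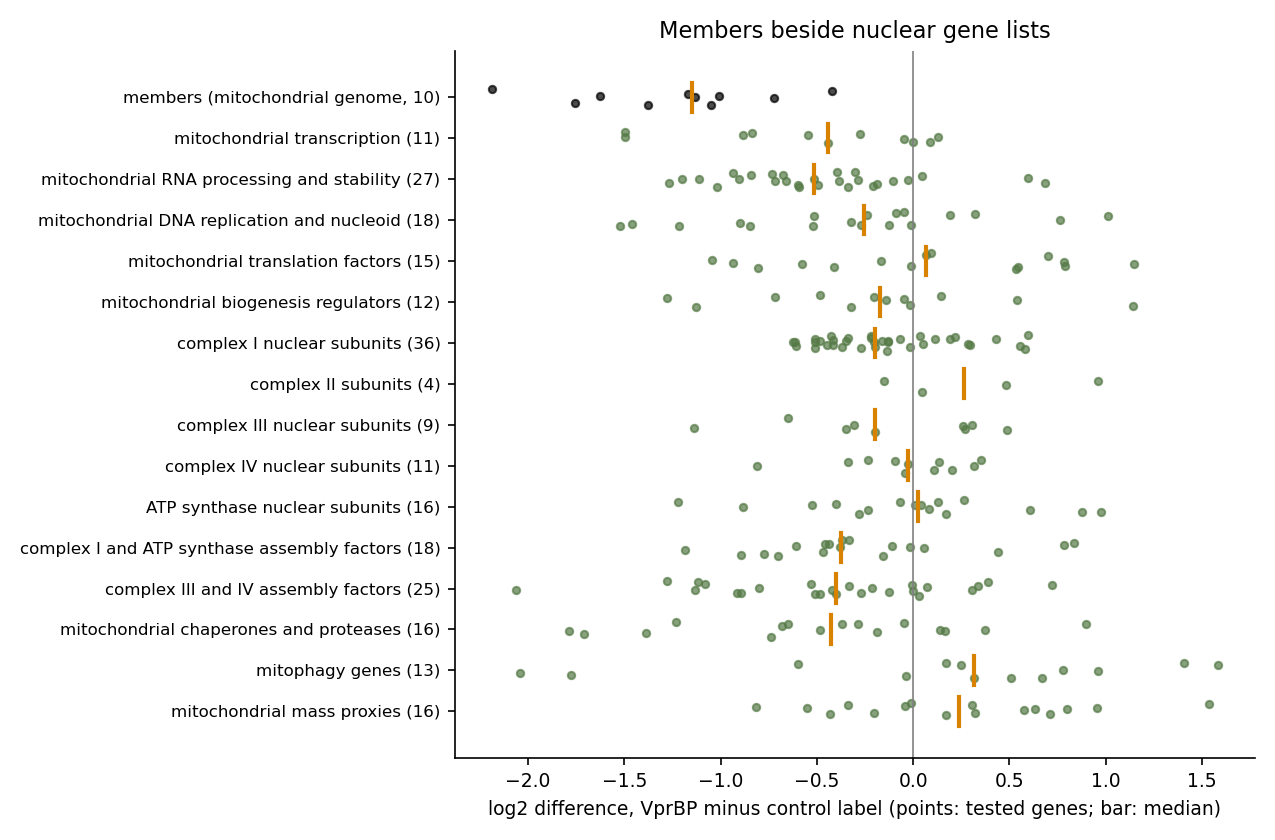
Log2 difference (VprBP-labelled minus control-labelled) of each tested gene, 1 row per list with the number tested in brackets, and orange bars at the medians. The 10 mitochondrially encoded genes in the top row lie between -2.19 and -0.42 with a median of -1.15, and the medians of the nuclear lists lie between -0.52 and 0.32.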

How the data were processed

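The 6 libraries were compared as 3 against 3, by label. The deposited values are expected counts per gene, made by the authors with Partek on mm10 (GRCm38), per the submitters' processing notes; for the aligner, the counter, the strand setting and the annotation the entry is: not given in the sources used here. RNA was purified on RNeasy columns and 1.3 ug went into SMARTer libraries, per the labels' protocols. Whole values, within 0.001, made up 62.1% to 64.5% of each library. Of 18908 gene IDs, 18501 (97.8%) matched GENCODE M21, with the same coordinates. No listed gene had under 10 counts over the 6 libraries.

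Counts were rounded and tested with edgeR 4.0.16 in R 4.3.3: TMM scaling, filterByExpr, quasi-likelihood test, label as the only term and Benjamini-Hochberg adjustment over 14641 genes, with calls at 0.05. The biological coefficient of variation was 6.70%. The code was first tested on simulated counts in which few genes changed. Most tested genes were called here, so that run does not check the scaling of these libraries. Nuclear copies were found by BLAST 2.17.0 of GENCODE M21 transcripts against those of chromosome M (90% identity over 50 bases); no genome sequence was used. Copies were added as CPM, and the log2 of such sums is a ratio of means.

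The 10 genes and all lists were chosen with earlier results of these data known. From each nuclear list the 2 called genes of smallest p per direction were named, and up to 4 from the transcription, RNA processing and biogenesis lists, besides exceptions marked in the text. Alternatives were 3 other scalings, scaling without mitochondrial rows, no filter, DESeq2 1.42.0, the replicate number as a block and leaving out each library. Libraries of a label correlated at 0.985 to 0.987 over genes, and libraries of different labels at 0.859 to 0.864.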

Additional observations from a re-analysis of the deposited data

How the results depend on the processing

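All 10 mitochondrially encoded genes were lower and called in each of the 13 alternatives, with log2 differences between -2.24 and -0.30. The genes were chosen on this comparison and the alternatives reuse its libraries, so nothing is read from that count. In the reported fit 75.0% of all tested genes were called. Calls over all genes ranged from 10637 to 11605, against 10974 as reported, and DESeq2 gave 10945. Scaling by library size alone shifted the median of all genes by 0.12 and split the calls into 6160 higher and 4719 lower (56.6% higher, against 50.6%). Under it the log2 ratio of the summed genes was -0.82 (-0.94 as reported), with nuclear copies -0.89 (-1.01) and without mt-Co1 -1.31 (-1.43). Nuclear copies moved the log2 ratio, VprBP-labelled over control-labelled, of mt-Nd6 to the 9 genes of the other strand to 0.29, against 0.21. No called chromosome M gene changed sign; mt-Rnr2, not called, was at 0.01 with library sizes alone (-0.11 as reported). Of the counts of calls within lists, 6 moved by over 1.5 times and 384 did not: with library sizes alone, transcription genes higher 1 (0 as reported), complex II genes lower 0 (1) and ATP synthase genes higher 9 (5); complex II genes lower 0 also without VprBP-labelled library 2 or 3; and chaperones higher 2 (4) without control-labelled library 3. Replicate numbers are shared by the labels but did not pair the libraries: deviations correlated at -0.03, 0.01 and -0.04 for equal numbers and at -0.05 to 0.08 for unequal ones. With the replicate number as a block 10649 genes were called, the 10 among them.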
